A study of Mus musculus with 6 samples.

Results

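ATP-binding cassette (ABC) genes were followed across 6 RNA sequencing libraries of cultured mouse lung endothelial cells. The members were the 34 genes of the deposited filtered table, which lists 13098, whose symbols begin with Abca to Abcg and a number, together with Cftr. Tap1, Tap2 and the Tapbp genes were left out, while Abcb9, a relative of the Tap genes, matched by its symbol and was kept. The cells came from 3-week-old C57BL6 mice, labelled female, that lack Ch25h, the gene for cholesterol 25-hydroxylase, and this deletion is shared by all groups. The vehicle group received phosphate-buffered saline alone. The second group received tumour extracellular vesicles (TEV) shed by MC38 mouse colorectal carcinoma cells, at 20 µg per ml for 12 h. The third group received the same vesicles after 8 h with 10 µM reserpine, an inhibitor of vesicular monoamine transporters. Each of the 3 groups held 2 libraries, and those of the third are called reserpine replicates 1 and 2 below. Cells with intact Ch25h and cells given only reserpine were not analysed here, and what reserpine does by itself and what it does to the vesicle response cannot be told apart.

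ABC proteins bind and split ATP to move substrates across membranes. ABCB1 (P-glycoprotein), the ABCC proteins and ABCG2 pump drugs, conjugates and organic anions out of cells, and in vessel walls ABCB1 and ABCG2 form part of the barrier between blood and tissue. ABCA1 loads cholesterol and phospholipid onto lipid-poor apolipoprotein A-I, and ABCG1 moves sterols toward mature lipoprotein particles. Both genes are classical targets of the liver X receptors (LXR), which bind oxysterols. Other members serve peroxisomes, mitochondria and lysosomes, and the ABCE and ABCF proteins act in translation and transport nothing. Mice carry a pair of genes, Abcb1a and Abcb1b, where humans have a single ABCB1.

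The bases upstream of the annotated start of 3 genes are shown because the results turn on the unequal behaviour of the paralogs Abcb1a and Abcb1b and of the LXR targets Abca1 and Abcg1. They come from the RefSeq promoter table (GRCm38.p6), in which 26 of the 34 members matched and Abcg1 did not. The Abca1 bases are chr4:53159896-53160145 on the minus strand, those of Abcb1a chr5:8566841-8567090 and those of Abcb1b chr5:8797897-8798146, both on the plus strand. Each run holds 250 bases, 5′ to 3′, ending at the last base before the start.
Abca1: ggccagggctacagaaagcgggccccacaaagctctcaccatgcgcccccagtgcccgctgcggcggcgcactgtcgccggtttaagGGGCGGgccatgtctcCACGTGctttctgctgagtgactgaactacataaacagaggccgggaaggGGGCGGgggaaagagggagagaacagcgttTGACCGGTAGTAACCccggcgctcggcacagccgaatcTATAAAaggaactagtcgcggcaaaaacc
Abcb1a: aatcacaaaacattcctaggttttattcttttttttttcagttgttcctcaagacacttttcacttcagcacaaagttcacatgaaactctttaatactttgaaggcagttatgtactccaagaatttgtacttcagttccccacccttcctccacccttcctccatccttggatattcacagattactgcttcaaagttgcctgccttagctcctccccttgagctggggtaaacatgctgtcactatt
Abcb1b: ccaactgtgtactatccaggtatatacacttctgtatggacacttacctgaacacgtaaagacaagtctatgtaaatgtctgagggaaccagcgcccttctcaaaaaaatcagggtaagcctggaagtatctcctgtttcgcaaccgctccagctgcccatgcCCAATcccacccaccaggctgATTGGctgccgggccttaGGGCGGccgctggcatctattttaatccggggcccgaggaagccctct
Capitals mark matches on either strand to 5 patterns. They were GGGCGG, which is the core of a GC box, the CCAAT box, the palindromic E-box CACGTG, and the core promoter element TATAAA. The last was a direct repeat like the one bound by LXR, chosen because it takes in the element known from Abca1, with a first unit of GGTNA that is followed after 5 free positions by a second unit of GGTCA. No marked match overlaps another. The Abca1 stretch held the direct repeat, beginning 67 bases before the start, a match set in advance by the choice of pattern. The repeat was in 1 of the 26 matched members and in 0.177% of 32851 promoters of this length. The Abca1 stretch also held 2 GC boxes, an E-box (6.02% of promoters) and a TATAAA (12.4%). The Abcb1b stretch held a GC box (present in 32.7% of promoters) and 2 CCAAT matches (33.8%), whereas none of the 5 patterns was found in the Abcb1a stretch. Across the 26 matched members, 17 held GGGCGG in at least 1 promoter entry. Some members have more than 1 entry, and the percentages of promoters count each entry, so the 2 are in unlike units. These matches describe letters and show no binding.

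Total estimated counts ran from 22270657 to 81225627 per library, and the members took 0.199% to 0.247% of them. Ch25h lay between 0.313 and 1.07 CPM (counts scaled to a common library total with TMM factors, the unit of all levels below). It was at 0.348 and 0.313 CPM in vehicle and 1.07 and 0.919 with TEV plus reserpine. There it was called higher than vehicle (log2 change 1.57, SE 0.46, edgeR quasi-likelihood test, adjusted p = 0.0334). These levels rest on 9.09 to 40.8 estimated counts per library. The deleted exons are not given in the sources, so the levels do not check the genotype. The endothelial label was checked with 13 markers, all of them tested, with summed levels of 5085 and 5138 CPM in vehicle, 10318 and 10462 with TEV, and 10008 and 10266 with TEV plus reserpine. With TEV, 9 of the 13 rose and 4 fell against vehicle (25.1% and 24.6% of all genes). Vehicle libraries also carried fibroblast markers (summed 2976 and 3418 CPM), which came to between 55.7 and 98.0 CPM in the other 4 libraries. In bulk samples, fewer cells of a type and less RNA per cell cannot be told apart. The sources do not say if replicates came from separate cultures or mice, and p-values thus measure only the spread between these libraries.

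With TEV, 22 of the 34 members were called against vehicle, 11 higher and 11 lower (edgeR quasi-likelihood test, adjusted p under 0.05 over all genes tested), beside 49.7% of all 15035 genes tested (25.1% higher, 24.6% lower) and 53.6% of the filtered-table genes (27.7% higher, 25.9% lower), the population the members come from. The members' median log2 change was -0.22, against 0.01 for all genes, while their median size of change in either direction was 0.80, against 0.52. When reserpine preceded the vesicles, 11 members were higher and 7 lower than with TEV alone, beside 31.6% of all genes called (15.7% higher, 16% lower) and 35.2% of filtered-table genes (17.6% and 17.7%). Against vehicle, TEV plus reserpine gave 12 members higher and 8 lower, beside 39.1% of all genes called (19.1% higher, 19.9% lower) and 42.1% of filtered-table genes (21.3% and 20.8%). Those last counts fell to 6 and 5 without vehicle replicate 1 or without reserpine replicate 1, and 4 were lower without vehicle replicate 2 and 5 without reserpine replicate 2. All genes called in reserpine against TEV dropped from 4757 to 2153 without TEV replicate 1 and to 2683 or 2688 without reserpine replicate 1 or 2, and those called in TEV plus reserpine against vehicle from 5873 to 3673 without vehicle replicate 1. Each pair of comparisons shares libraries, so their values are given side by side only. The shares of all genes given here apply to every count of members, listed genes or marker genes from the main fit. They do not apply to counts from other settings, whose shares of all genes differ.

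**Figure D1:**
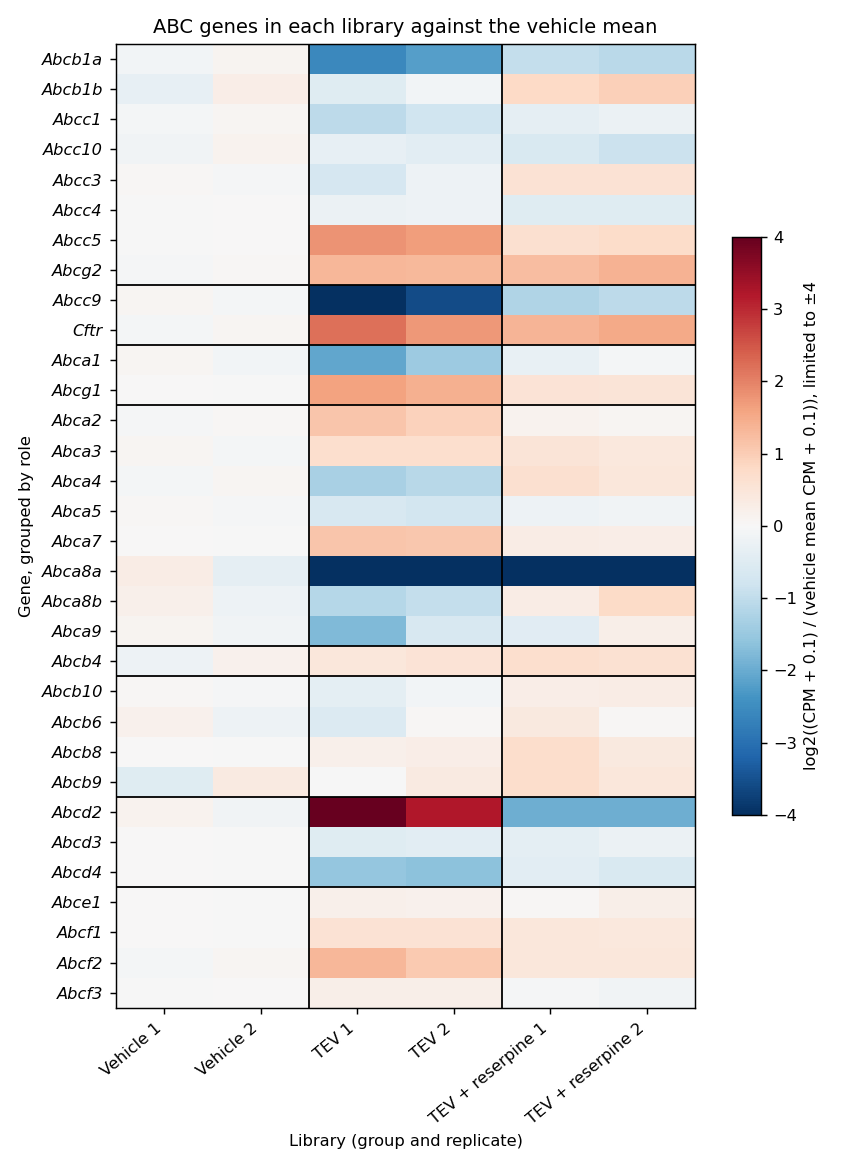
Level of 32 of the 34 ABC genes (rows, grouped by role) in the 6 libraries (columns), as log2 of CPM plus 0.1 relative to the vehicle mean plus 0.1, limited to 4 in either direction. Abcd2 stands out as high with TEV, Abcc9 as low with TEV, and Abca8a as low in all 4 libraries that received vesicles. Abca8a passed the filter only through vehicle.

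Among the drug and anion exporters, Abcb1a and Abcb1b, which encode the 2 mouse P-glycoproteins, parted with vesicles. Abcb1a stood at 55.1 and 65.1 CPM in vehicle, 9.94 and 13.1 with TEV, and 31.1 and 28.7 with TEV plus reserpine. The 3 groups did not overlap, with vehicle highest and TEV lowest. Abcb1a was 5.19-fold lower with TEV than in vehicle (log2 change -2.38, SE 0.16, adjusted p = 7.03e-05), 2.58-fold higher with reserpine than with TEV alone (1.37, SE 0.16, adjusted p = 0.00203), and still lower than vehicle there (-1.01, SE 0.15, adjusted p = 0.00303). Abcb1b measured 54.9 and 83.4 CPM in vehicle, 49.1 and 64.7 with TEV, and 121 and 133 with TEV plus reserpine. Here vehicle and TEV overlapped (log2 change -0.28, SE 0.21, adjusted p = 0.318), and the highest level came with reserpine. It rose by 1.16 on the log2 scale against TEV (SE 0.21, adjusted p = 0.0095) and by 0.88 against vehicle (SE 0.21, adjusted p = 0.0178). The first call ended without TEV replicate 1 (adjusted p = 0.055), and the second without vehicle replicate 1 (0.060) or without reserpine replicate 1 (0.0526) or 2 (0.0775).

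The ratio of Abcb1b to Abcb1a, each per kilobase of its transcript, was 1.16 and 1.49 in vehicle, 5.73 and 5.75 with TEV, and 4.53 and 5.37 with TEV plus reserpine. Thus Abcb1b outweighed Abcb1a several-fold in all 4 vesicle libraries, with and without reserpine, and not in vehicle. The genes lie next to each other on chromosome 5, with Abcb4 beside them, and their transcripts are alike: 10.6% of the 75-base windows of Abcb1a also occur in Abcb1b, and 12.4% of those of Abcb1b in Abcb1a, so reads of that length are partly shared and each level depends on how they were divided. With both genes added, the sum was 110 and 149 CPM in vehicle, 59.1 and 77.8 with TEV, and 152 and 162 with TEV plus reserpine. The sum fell by 0.91 on the log2 scale with TEV (SE 0.18, adjusted p = 0.00547), rose by 1.20 with reserpine against TEV (SE 0.18, adjusted p = 0.00465) and was not called against vehicle (0.28, SE 0.18, adjusted p = 0.247). Abcb4, the neighbouring phosphatidylcholine transporter gene of bile canaliculi, was low throughout at 1.70 to 3.17 CPM and was called in no comparison.

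**Figure D2:**
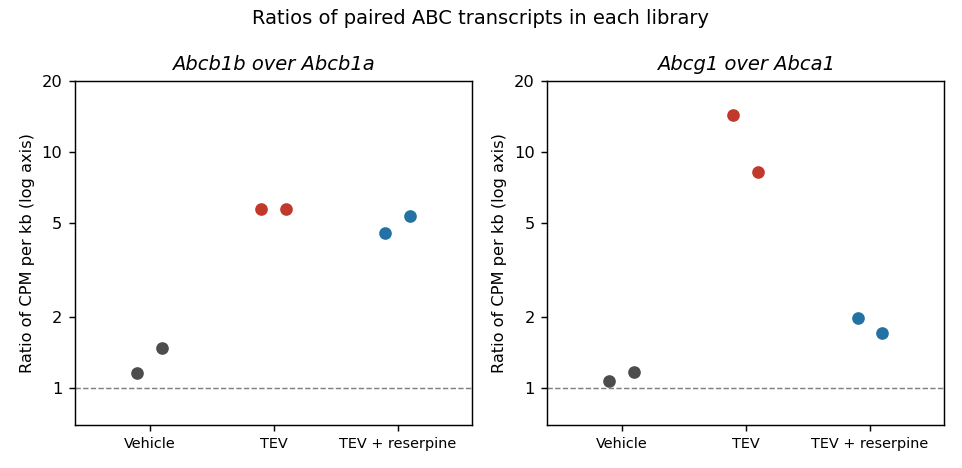
Ratio of Abcb1b to Abcb1a (left) and of Abcg1 to Abca1 (right) in each library, from CPM per kb of transcript, on a log axis, with a dashed line at equal levels. Both ratios lay between 1.07 and 1.49 in vehicle; with TEV plus reserpine the first was 4.53 and 5.37 and the second 1.98 and 1.71.

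Abcg2, the breast cancer resistance protein and a urate and drug exporter, behaved differently from P-glycoprotein. It measured 47.0 and 49.9 CPM in vehicle, 123 and 118 with TEV, and 115 and 127 with TEV plus reserpine. Both vesicle groups lay above vehicle and overlapped each other. Abcg2 was 2.49-fold higher with TEV (log2 change 1.31, SE 0.09, adjusted p = 6.39e-05) and 2.50-fold higher with TEV plus reserpine (1.32, SE 0.09, adjusted p = 0.000112) than in vehicle. Between the vesicle groups the log2 difference was 0.01 (SE 0.09, adjusted p = 0.956), and its sign changed between settings. The 13 endothelial markers summed to 5085 and 5138 CPM in vehicle, 10318 and 10462 with TEV, and 10008 and 10266 with TEV plus reserpine. With TEV, 9 of them rose and 4 fell against vehicle (25.1% and 24.6% of all genes). The part of a changed cell mix in the Abcg2 rise was not tested, nor was it for any other member that rose with TEV.

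Of the ABCC exporters, Abcc5, a pump of cyclic nucleotides and nucleotide analogues, rose most with TEV. Its level was 103 and 105 CPM in vehicle, 363 and 328 with TEV, and 163 and 173 with TEV plus reserpine, with no overlap between groups. It was 3.32-fold higher with TEV (log2 change 1.73, SE 0.08, adjusted p = 2.1e-05), fell by 1.04 with reserpine against TEV (SE 0.08, adjusted p = 0.000682) and stayed above vehicle there (0.69, SE 0.08, adjusted p = 0.00107). Abcc1, which exports glutathione conjugates and leukotriene C4, went the other way, at 213 and 241 CPM in vehicle, 110 and 132 with TEV, and 177 and 194 with TEV plus reserpine. It fell by 0.91 on the log2 scale with TEV (SE 0.12, adjusted p = 0.000937) and rose by 0.62 with reserpine against TEV (SE 0.12, adjusted p = 0.00987), a call that ended without reserpine replicate 2 (0.0518). Abcc3, an exporter of glucuronides and bile salts, was at 8.36 to 14.0 CPM in vehicle and TEV and at 20.0 and 20.2 with TEV plus reserpine, and rose by 0.99 on the log2 scale against TEV (SE 0.18, adjusted p = 0.00885).

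Abcc4, an exporter of cyclic nucleotides and prostaglandins, was at 40.2 and 41.8 CPM in vehicle, 34.8 and 35.3 with TEV, and 29.3 and 29.1 with TEV plus reserpine, and was called lower in the last group than in vehicle (log2 change -0.49, SE 0.09, adjusted p = 0.00575). Its difference between TEV and vehicle was -0.22 (SE 0.09, adjusted p = 0.070), called with scaling by library size alone (-0.35, adjusted p = 0.0166). Abcc10, which can export taxanes, ranged from 4.88 to 9.85 CPM and was called lower only between those same groups (-0.75, SE 0.19, adjusted p = 0.020), not without vehicle replicate 2 (0.102) or without reserpine replicate 2 (0.0974). The higher level of Abcc3 with TEV plus reserpine than in vehicle (0.58, SE 0.18, adjusted p = 0.0417) was not called without any single library of those groups (0.107 to 0.154). Against vehicle, Abcc3 with TEV had a log2 difference of -0.42 (SE 0.18, adjusted p = 0.0926), called without TEV replicate 2 (-0.69, adjusted p = 0.0147), with libraries thinned to the smallest (-0.48, adjusted p = 0.0403) and, at the threshold, with library size alone (-0.54, adjusted p = 0.050). Taking Abcb1a, Abcb1b, the ABCC genes and Abcg2 as 1 class of 9 members, their summed level was 561 and 632 CPM in vehicle, 706 and 712 with TEV, and 674 and 721 with TEV plus reserpine. By its symbol this class includes Abcc9, described below, which is no drug pump. Without Abcc5, left out after its values were seen, the sums were 458 and 527, 343 and 383, and 510 and 548 CPM. TEV was the lowest group without Abcc5, whereas with it TEV lay above vehicle and overlapped TEV plus reserpine. Since Abcc5 had the largest rise of the class with TEV, leaving it out lowers the TEV sums most. No conclusion on the class is drawn from the order without it. With Abcc5 kept and Abcc9 left out, the sums were 536 and 609, 705 and 710, and 663 and 710 CPM.

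Of 20 tested genes for xenobiotic receptors and detoxification enzymes, listed beside the exporters, 5 were higher and 5 lower with TEV than in vehicle. Of all genes, 25.1% were higher and 24.6% lower there. With TEV plus reserpine against TEV alone, 5 of the 20 were higher and 2 lower (15.7% and 16% of all genes). Nqo1, a quinone reductase, rose by 1.92 on the log2 scale with TEV (SE 0.07, adjusted p = 8.64e-06) and fell by 1.00 with reserpine against TEV (SE 0.07, adjusted p = 0.000486). The glutathione transferase gene Gstm1 rose by 1.69 with TEV (SE 0.13, adjusted p = 0.000114), whereas Por, the electron donor of cytochromes P450, fell by 0.78 (SE 0.09, adjusted p = 0.000684). Gsr, glutathione reductase, rose by 0.72 with reserpine against TEV (SE 0.09, adjusted p = 0.00217).

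**Figure D3:**
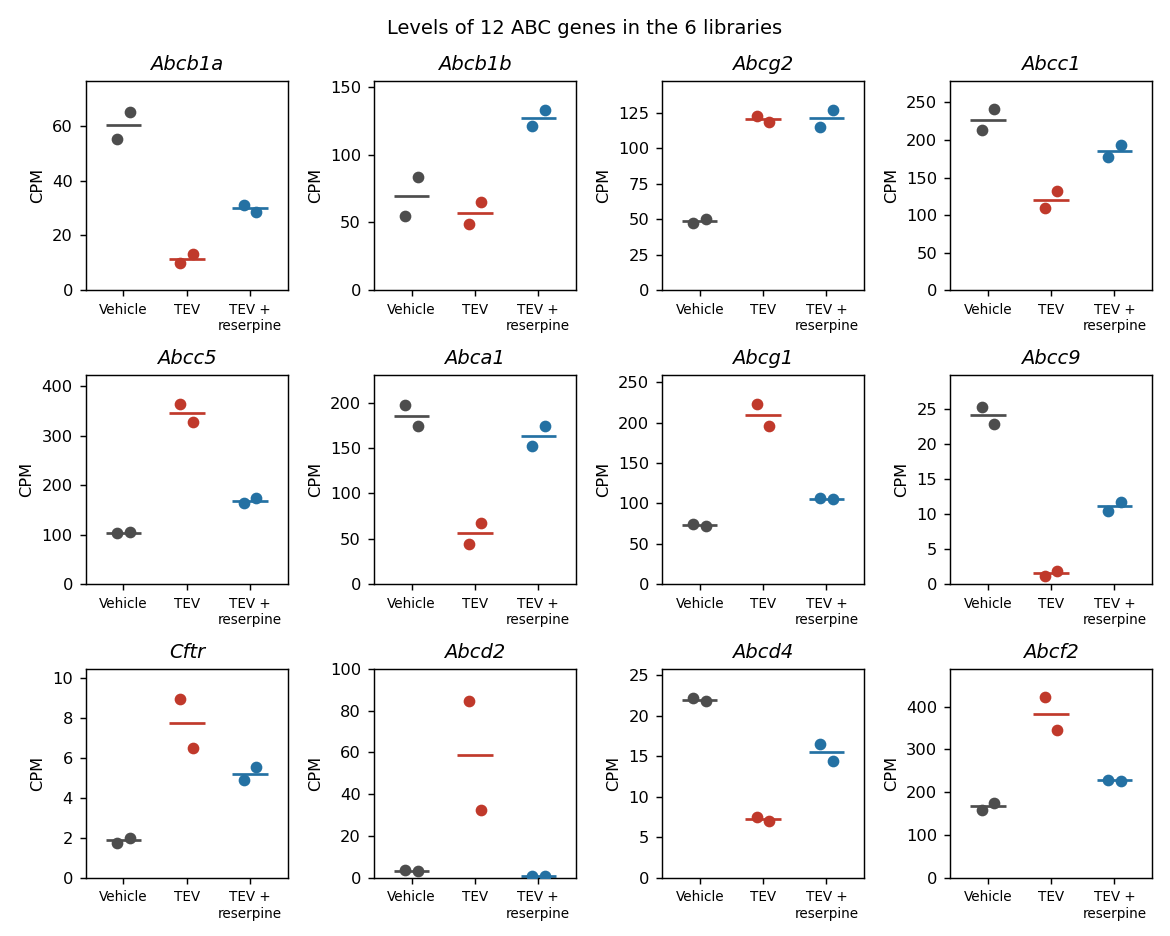
CPM of 12 ABC genes in the 6 libraries, with points for libraries and bars for group means, and with each axis starting at 0. Abcb1a and Abca1 are lowest with TEV, Abcc5, Abcg1 and Abcd2 highest with TEV, and Abcg2 lies between 115 and 127 CPM in all 4 vesicle libraries.

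Abcc9 and Cftr belong to the ABCC branch but are no drug pumps. Abcc9 encodes SUR2, the regulatory subunit of ATP-sensitive potassium channels in mural and heart cells, and Cftr a chloride channel. Abcc9 was at 25.3 and 22.8 CPM in vehicle, 1.14 and 1.91 with TEV, and 10.5 and 11.7 with TEV plus reserpine. All 3 groups stood apart, with TEV lowest. Abcc9 was 15.3-fold lower with TEV than in vehicle (log2 change -3.94, SE 0.25, adjusted p = 5.27e-05), 7.05-fold higher with reserpine than with TEV alone (2.82, SE 0.24, adjusted p = 0.000842), and 2.17-fold lower than vehicle in that group (-1.12, SE 0.22, adjusted p = 0.00777), a call lost without reserpine replicate 1 (0.0536).

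Mural cells, which surround vessels, are a usual source of Abcc9. Of 11 markers of pericytes and smooth muscle, 10 could be tested and all 10 fell with TEV (24.6% of all genes). Their summed levels were 2001 and 2024 CPM in vehicle, 782 and 891 with TEV, and 854 and 933 with TEV plus reserpine. Cspg4 had no reads in either vesicle group. With reserpine against TEV, 3 of the 10 were higher (15.7% of all genes). The share of these cells in the change of Abcc9 was not tested. Kcnj8, the pore subunit that pairs with SUR2, was at 1.53 and 2.09 CPM in vehicle, 0.528 and 0.356 with TEV, and 1.79 and 4.31 with TEV plus reserpine, and rose by 2.82 on the log2 scale between the last groups (SE 0.51, adjusted p = 0.0090). Notch3, a receptor of mural cells, rose by 2.16 there (SE 0.26, adjusted p = 0.00229). The mural receptor Pdgfrb, by contrast, lay between 2.10 and 2.61 CPM in all 4 vesicle libraries, after 123 and 103 CPM in vehicle.

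Cftr was scarce, at 1.76 and 1.98 CPM in vehicle, 8.97 and 6.53 with TEV, and 4.91 and 5.54 with TEV plus reserpine. Every vesicle library exceeded both vehicle libraries. It was 4.13-fold higher with TEV (log2 change 2.05, SE 0.24, adjusted p = 0.000609) and 2.80-fold higher with TEV plus reserpine (1.48, SE 0.24, adjusted p = 0.0035) than in vehicle. The difference between the vesicle groups was -0.56 (SE 0.22, adjusted p = 0.098), called with libraries thinned to the smallest (-0.67, adjusted p = 0.0435). Epithelia are a usual site of Cftr. Of 13 lung epithelial markers 6 could be tested, with a median log2 change of -0.62 with TEV. There 1 was higher and 2 were lower than in vehicle (25.1% and 24.6% of all genes). The summed level of those 6 was 9.52 and 9.85 CPM in vehicle, 33.0 and 34.2 with TEV, and 42.1 and 47.4 with TEV plus reserpine, nearly all of it Krt18 (30.6 to 44.4 CPM in the vesicle libraries). Epcam had no reads in vehicle and with TEV plus reserpine, and Sftpa1 and Sftpd had none in any group. Of 8 colon tumour markers 5 could be tested, 2 higher and 2 lower with TEV than in vehicle (25.1% and 24.6% of all genes). Their sums were 18.7 and 19.2 CPM in vehicle, 36.7 and 38.2 with TEV, and 17.9 and 19.3 with TEV plus reserpine. The part of either cell type in the Cftr change was not tested.

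**Figure D4:**
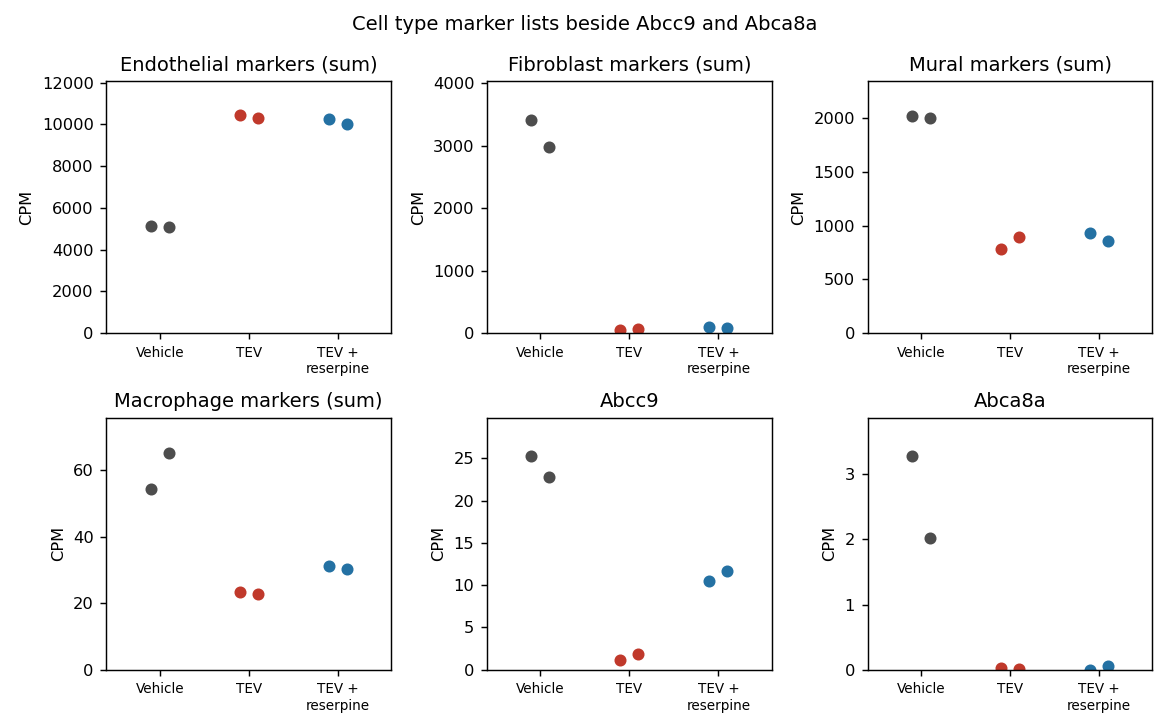
Summed CPM of 4 cell type marker lists and CPM of Abcc9 and Abca8a in each library (points), on axes from 0. Fibroblast markers are at 55.7 to 98.0 CPM in the vesicle libraries, where Abca8a is near 0 and Abcc9 is at 1.14 to 11.7 CPM. The filter kept Abca8a only through its vehicle levels.

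The cholesterol exporters changed in opposite directions with vesicles. Abca1 was at 198 and 174 CPM in vehicle, 44.3 and 67.6 with TEV, and 153 and 175 with TEV plus reserpine. TEV lay below both other groups, which overlapped. Abca1 was 3.31-fold lower with TEV (log2 change -1.73, SE 0.20, adjusted p = 0.000592) and 2.92-fold higher with reserpine than with TEV alone (1.55, SE 0.20, adjusted p = 0.00274). With TEV plus reserpine it differed from vehicle by -0.18 (SE 0.19, adjusted p = 0.487). Abcg1 was at 74.3 and 71.3 CPM in vehicle, 223 and 195 with TEV, and 106 and 105 with TEV plus reserpine. Its groups did not overlap, and TEV was highest. Abcg1 was 2.87-fold higher with TEV (log2 change 1.52, SE 0.09, adjusted p = 4.3e-05), fell by 0.99 with reserpine against TEV (SE 0.09, adjusted p = 0.000938) and remained above vehicle there (0.53, SE 0.09, adjusted p = 0.00416).

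Per kilobase of transcript, Abcg1 stood to Abca1 as 1.07 and 1.17 in vehicle, 14.3 and 8.23 with TEV, and 1.98 and 1.71 with TEV plus reserpine. The sum of the 2 genes in CPM, uncorrected for length, was 272 and 245 in vehicle, 267 and 263 with TEV, and 259 and 280 with TEV plus reserpine, and these sums overlapped across all groups. The direct repeat shown above, chosen for its known place in Abca1, is in the Abca1 promoter stretch. No Abcg1 stretch was available to set beside it. Other genes of sterol handling and LXR regulation did not follow a single direction. Of 26 tested, 5 were higher and 8 lower with TEV than in vehicle (25.1% and 24.6% of all genes). The median log2 change of the 26 was -0.04. With TEV plus reserpine against TEV, 3 were higher and 2 lower (15.7% and 16% of all genes). The genes named next were taken by level, and larger changes in this list, in both directions, are not named. The named genes therefore do not stand for LXR targets as a class. Scd2, a stearoyl-CoA desaturase gene, fell by 1.08 with TEV (SE 0.13, adjusted p = 0.000845), and Npc2, a lysosomal cholesterol carrier, by 0.47 (SE 0.08, adjusted p = 0.00377). Srebf1, a regulator of lipid synthesis, rose by 0.45 (SE 0.09, adjusted p = 0.00595). With reserpine against TEV, the desaturase Scd1 fell by 0.70 (SE 0.10, adjusted p = 0.00401) and the sterol-binding protein gene Osbpl3 rose by 0.65 (SE 0.10, adjusted p = 0.00495). Macrophages also carry much Abca1. Of their 13 markers, 11 were tested, with 7 lower and 1 higher with TEV than in vehicle (24.6% and 25.1% of all genes). The markers summed to 54.4 and 65.3 CPM in vehicle, 22.9 and 23.5 with TEV, and 30.4 and 31.3 with TEV plus reserpine. The part of macrophages in the Abca1 change was not tested.

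The other 8 ABCA members, which move lipids within or out of cells, split with vesicles into 3 higher, 4 lower and 1 not called against vehicle. Of the filtered-table genes, 27.7% were higher and 25.9% lower with TEV than in vehicle. Abca7, a phospholipid transporter linked to phagocytosis, was at 54.2 and 52.3 CPM in vehicle, 115 and 113 with TEV, and 65.1 and 64.6 with TEV plus reserpine. It rose by 1.10 on the log2 scale with TEV (SE 0.08, adjusted p = 7.67e-05) and fell by 0.81 with reserpine against TEV (SE 0.08, adjusted p = 0.00102). Abca2, an endolysosomal lipid transporter, had the same order of groups, at 46.9 and 50.0 CPM in vehicle, 104 and 91.2 with TEV, and 53.1 and 50.6 with TEV plus reserpine. It rose by 1.01 with TEV (SE 0.10, adjusted p = 0.000294) and fell by 0.91 with reserpine against TEV (SE 0.10, adjusted p = 0.00157). Abca3, known for loading surfactant lipid in alveolar type II cells, was at 128 and 117 CPM in vehicle, 195 and 195 with TEV, and 175 and 165 with TEV plus reserpine. It was called higher than vehicle with TEV (0.67, SE 0.08, adjusted p = 0.000706) and with TEV plus reserpine (0.47, SE 0.08, adjusted p = 0.00461). The surfactant genes Sftpb and Sftpc of those alveolar cells had reads in vehicle and with TEV and none with TEV plus reserpine. Levels of these surfactant genes are not given here. Library totals also differed, at 41528816 and 27528493 counts in vehicle, 38305039 and 81225627 with TEV, and 22270657 and 34511418 with TEV plus reserpine. The lack of reads is therefore not taken as a difference between groups. The part of such cells in the Abca3 change was not tested. An antisense gene, D330041H03Rik, overlaps 14.1% of the Abca3 exon bases, so some of its reads can be counted there.

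Abca4, best known as the retinoid flippase of photoreceptors, was at 17.0 and 19.3 CPM in vehicle, 7.30 and 8.38 with TEV, and 28.1 and 25.1 with TEV plus reserpine. It fell by 1.21 with TEV (SE 0.14, adjusted p = 0.000604), rose by 1.76 with reserpine against TEV (SE 0.14, adjusted p = 0.000686) and was above vehicle there (0.55, SE 0.14, adjusted p = 0.0191), not without vehicle replicate 1 (0.112) or reserpine replicate 1 (0.0955). Abca7 was likewise called above vehicle with TEV plus reserpine (0.28, SE 0.08, adjusted p = 0.0257), and this ended without any single library of those groups (0.0737 to 0.141).

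Abca5, Abca8a, Abca8b and Abca9 lie in 1 row on chromosome 11, together with Abca6, which is no member because of its low counts. Neighbours in that row differed. Abca8a, a gene of fibroblasts, had 141 and 57.9 estimated counts in vehicle, 0.848 and 0.856 with TEV, and 0 and 1.70 with TEV plus reserpine; the library at 0 allows up to 0.135 CPM (3 counts). It was 159-fold lower with TEV than in vehicle (95% counting interval 43.4 to 1320.5) and 79.3-fold lower with TEV plus reserpine (21.7 to 659.5), and intervals cover counting error only. These folds come from rounded counts summed by group, and the edgeR fit gave 127-fold and 71.4-fold. By that fit Abca8a was called lower in both comparisons (adjusted p = 0.000478 and 0.00128). Abca8a passed the filter of 1 CPM in 2 libraries only through vehicle (3.27 and 2.02 CPM). Its fall therefore depends in part on how members were chosen, and the calls are no independent support for it. Between the vesicle groups no fold is given because both were near 0. All 10 tested of 12 fibroblast markers were lower with TEV (24.6% of all genes). Among them were Col1a2 (log2 change -9.53, SE 0.23, adjusted p = 2.18e-06) and Pdgfra (-5.11, SE 0.14, adjusted p = 3.46e-06), and Tcf21 had no reads with TEV. The part of fibroblasts in the Abca8a change was not tested. Abca8b, the adjacent paralog, was at 8.71 and 6.55 CPM in vehicle, 3.41 and 3.87 with TEV, and 9.38 and 13.1 with TEV plus reserpine. Unlike Abca8a it was highest with reserpine, rising by 1.62 on the log2 scale against TEV (SE 0.24, adjusted p = 0.00429) after a fall of 1.07 with TEV (SE 0.23, adjusted p = 0.0091) that was not called without vehicle replicate 1 (0.0526). Only 0.624% of the 75-base windows of Abca8a occur in Abca8b. Abca5, a lysosomal lipid transporter, was at 27.5 and 25.7 CPM in vehicle, 16.9 and 16.1 with TEV, and 23.2 and 23.9 with TEV plus reserpine; it fell by 0.69 with TEV (SE 0.10, adjusted p = 0.00185) and rose by 0.51 against TEV (SE 0.10, adjusted p = 0.0126), not without reserpine replicate 2 (0.0565). Abca9 stayed between 0.250 and 1.29 CPM and was called in no comparison, although without TEV replicate 2 it was lower with TEV (-2.10, adjusted p = 0.0383).

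**Figure D5:**
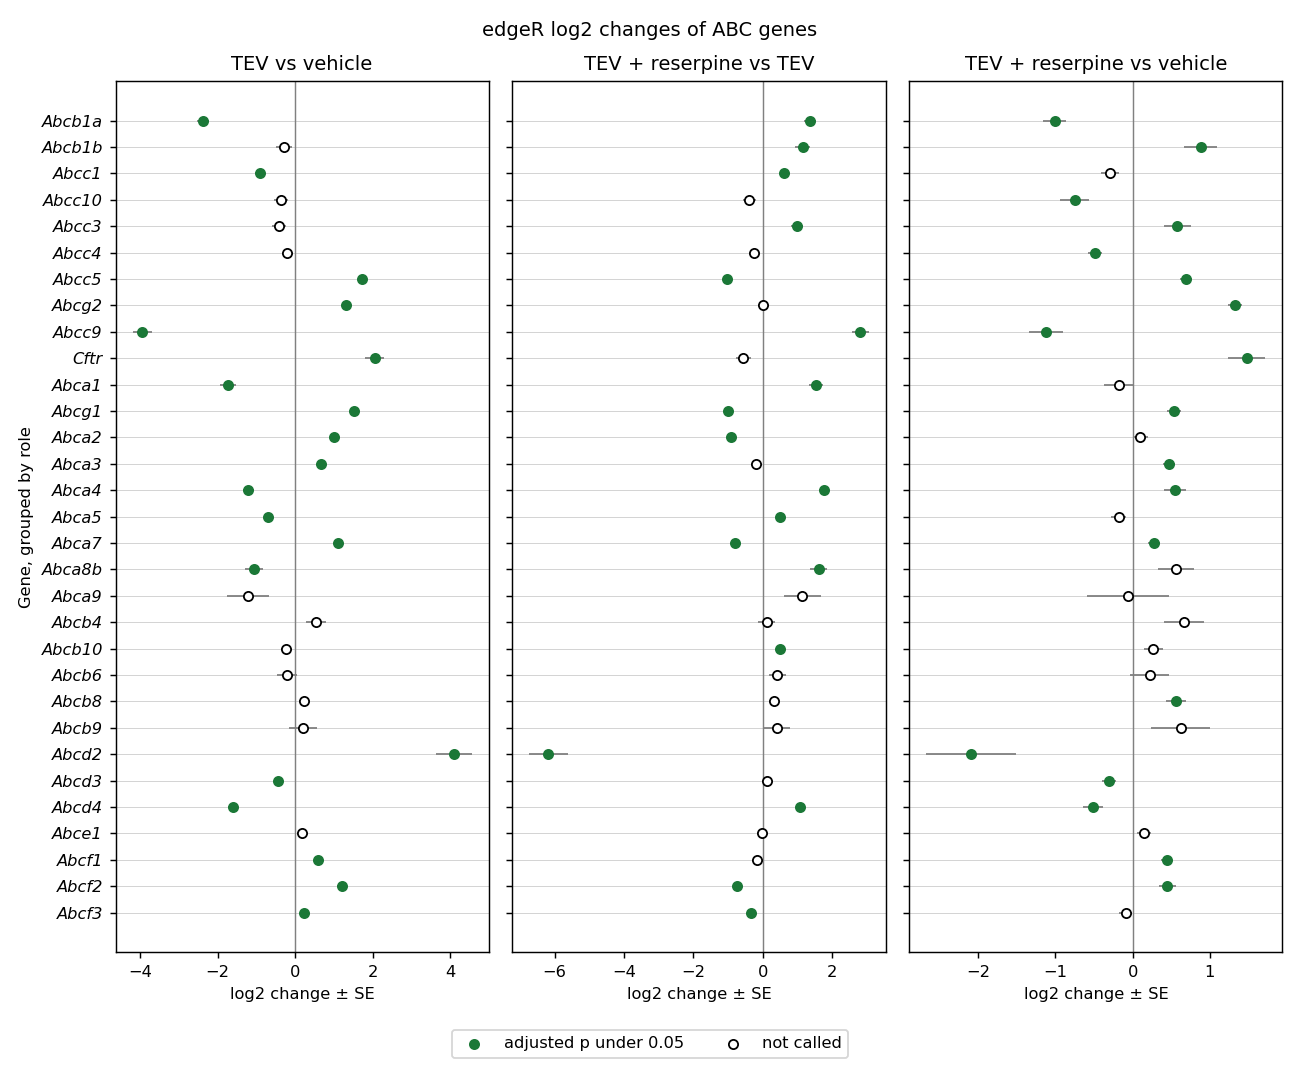
edgeR log2 changes with their standard errors for 31 ABC genes in the 3 comparisons, with filled points for an adjusted p under 0.05 and open points for the others; Abca8a is left out because of its low counts, and the axes differ in range. Abcd2 has the largest plotted changes, at 4.09 with TEV and -6.18 with reserpine against TEV, and Abcc9 follows with -3.94 and 2.82.

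The ABCD proteins carry activated very long chain fatty acids into peroxisomes, apart from ABCD4, which works with cobalamin at the lysosome. With vesicles Abcd2 rose, while Abcd3 and Abcd4 fell. Abcd2 was at 3.74 and 3.10 CPM in vehicle, 84.8 and 32.6 with TEV, and 0.804 and 0.804 with TEV plus reserpine. The TEV libraries differed widely from each other but lay far above the rest. Abcd2 was 17.0-fold higher with TEV than in vehicle (log2 change 4.09, SE 0.46, adjusted p = 0.000553) and 72.5-fold lower with reserpine than with TEV alone (-6.18, SE 0.55, adjusted p = 0.000898). Without TEV replicate 1, which had the higher level, the changes were 3.26 (adjusted p = 0.000195) and -5.34 (adjusted p = 0.000289). Its level with TEV plus reserpine was below vehicle (-2.09, SE 0.58, adjusted p = 0.0292), but not by limma-voom (0.28) or without any single library of those groups (0.055 to 0.136).

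Abcd4 was at 22.2 and 21.8 CPM in vehicle, 7.55 and 6.96 with TEV, and 16.5 and 14.4 with TEV plus reserpine, without overlap. It fell by 1.60 on the log2 scale with TEV (SE 0.13, adjusted p = 0.00015) and rose by 1.09 with reserpine against TEV (SE 0.13, adjusted p = 0.00223). Abcd3 was at 73.6 and 72.8 CPM in vehicle and at 52.8 to 62.3 CPM in the vesicle libraries, and fell by 0.45 with TEV (SE 0.09, adjusted p = 0.00581). With TEV plus reserpine, Abcd3 (-0.31, SE 0.09, adjusted p = 0.0325) and Abcd4 (-0.51, SE 0.13, adjusted p = 0.0206) were below vehicle. The call of Abcd3 ended without vehicle replicate 1 (0.141) or 2 (0.115) or reserpine replicate 1 (0.159), and that of Abcd4 without vehicle replicate 1 (0.0954) or 2 (0.0787) or reserpine replicate 2 (0.101). Of 22 other genes of peroxisomes and very long chain fatty acids, 5 were higher and 5 lower with TEV than in vehicle. Of all genes, 25.1% were higher and 24.6% lower there. With reserpine against TEV, 1 of the 22 was higher and 2 were lower (15.7% and 16% of all genes). Scp2, a peroxisomal thiolase and sterol carrier, rose by 0.75 with TEV (SE 0.08, adjusted p = 0.000564). Cat, catalase, fell by 0.66 with TEV (SE 0.11, adjusted p = 0.00336) and rose by 0.72 with reserpine against TEV (SE 0.11, adjusted p = 0.00605).

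The mitochondrial members Abcb8 and Abcb10, linked to iron and haem handling, the porphyrin-associated Abcb6 and the lysosomal peptide transporter Abcb9 were not called in TEV against vehicle, with log2 changes from -0.24 to 0.23. By edgeR 0 of these genes were called, 0 had an unadjusted p under 0.05, and DESeq2 and limma-voom called none of them either. Other settings did call Abcb10. Abcb10 was at 37.4 and 35.5 CPM in vehicle, 27.9 and 33.9 with TEV, and 43.6 and 44.6 with TEV plus reserpine. It rose by 0.51 with reserpine against TEV (SE 0.12, adjusted p = 0.0187), a call lost without TEV replicate 1 (0.0743) or reserpine replicate 1 (0.0663) or 2 (0.0744). Against vehicle, TEV libraries had a log2 difference of -0.24 in Abcb10 (adjusted p = 0.134), called without TEV replicate 2 (-0.39, adjusted p = 0.0363) and with library size alone (-0.36, adjusted p = 0.0491). An antisense gene model, Gm45890, overlaps 9.5% of its exon bases. Abcb8 was at 19.1 and 19.0 CPM in vehicle, 21.8 and 22.8 with TEV, and 31.2 and 25.2 with TEV plus reserpine, where it was above vehicle (0.56, SE 0.13, adjusted p = 0.0147). That call ended without vehicle replicate 1 (0.0692) or 2 (0.0657) or reserpine replicate 1 (0.0628). Abcb6 ranged from 6.41 to 12.3 CPM, and its level is uncertain because 88.5% of its windows also occur in an overlapping gene model, Gm29253. Abcb9 ranged from 1.11 to 2.64 CPM. Of 20 genes of haem and iron-sulphur cluster synthesis, 5 were higher and 6 lower with TEV than in vehicle. Of all genes, 25.1% were higher and 24.6% lower there. With reserpine against TEV, 3 of the 20 were higher and 6 lower (15.7% and 16% of all genes). Hmox1, haem oxygenase, fell by 0.59 with TEV (SE 0.12, adjusted p = 0.00736) and rose by 1.09 with reserpine against TEV (SE 0.12, adjusted p = 0.00186), while the mitochondrial iron importer Slc25a37 fell by 0.89 with TEV (SE 0.10, adjusted p = 0.000457).

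Abce1 and the Abcf genes encode soluble proteins that split ribosomes or act in initiation and stalling. All but Abcf3 (17.6 CPM per kb of transcript in vehicle) were among the members with the most RNA per length: in vehicle Abcf2 averaged 64.9, Abce1 56.5 and Abcf1 46.8 CPM per kb of transcript, ahead of Abcc1 at 33.4. Abcf2 was at 159 and 174 CPM in vehicle, 422 and 346 with TEV, and 229 and 226 with TEV plus reserpine, with no overlap between groups. It was 2.30-fold higher with TEV (log2 change 1.20, SE 0.11, adjusted p = 0.00024) and fell by 0.75 with reserpine against TEV (SE 0.11, adjusted p = 0.00421). Its level with TEV plus reserpine was above vehicle (0.45, SE 0.11, adjusted p = 0.018), not without vehicle replicate 1 (0.104) or reserpine replicate 1 (0.0616) or 2 (0.0606). Abcf1, an initiation factor partner, was at 150 and 146 CPM in vehicle, 223 and 222 with TEV, and 203 and 198 with TEV plus reserpine. It was above vehicle in both vesicle groups (0.59, SE 0.07, adjusted p = 0.000648, and 0.44, SE 0.07, adjusted p = 0.00331).

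Abce1, the ribosome recycling factor, stayed between 213 and 254 CPM and was called in no comparison. Abcf3 was at 53.4 and 55.6 CPM in vehicle, 64.4 and 64.4 with TEV, and 52.6 and 49.8 with TEV plus reserpine. Its calls with TEV (0.24, SE 0.08, adjusted p = 0.0465) and with reserpine against TEV (-0.33, SE 0.08, adjusted p = 0.0241) ended without any single library of the 6 (0.0518 to 0.221 and 0.0505 to 0.101), and with scaling by library size alone (0.285 and 0.0571). Of 16 tested genes of ribosome recycling and initiation, 5 were higher and 3 lower with TEV than in vehicle (25.1% and 24.6% of all genes). Among them the release factor genes Gspt1 (0.92, SE 0.13, adjusted p = 0.00136) and Etf1 (0.55, SE 0.10, adjusted p = 0.00488) and the quality control gene Nemf (0.54, SE 0.11, adjusted p = 0.00598) rose, and the initiation factor gene Eif1 fell by 0.48 (SE 0.08, adjusted p = 0.00243). With reserpine against TEV, 1 of the 16 was higher and 4 were lower (15.7% and 16% of all genes).

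Ordered by mean CPM per kb, the leading members after Abcf2, Abce1, Abcf1 and Abcc1 were, in vehicle, Abcd3 (22.0), Abcg1 (20.2), Abcc5 (19.4), Abca3 (19.2) and Abca1 (18.1). With TEV, Abcc5 reached 64.4 and Abcg1 58.0, while Abcc1 was at 17.8 and Abca1 at 5.45. With TEV plus reserpine, Abcc5 (31.3), Abcg2 (30.7), Abcb1b (29.5), Abcg1 (29.3), Abcc1 (27.3) and Abca3 (26.6) lay close together. Lengths are medians of annotated transcripts, so this order is approximate, and neighbouring values were not tested against each other.

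A further 17 symbols of the raw table fit the name rule but are missing from the filtered table. They were Abca6, Abca12 to Abca17, Abcb5, Abcb11, Abcc2, Abcc6, Abcc8, Abcc12, Abcg3, Abcg4, Abcg5 and Abcg8, with totals of 0 to 168 counts over all 6 libraries. Among them Abcc8, the pancreatic sulphonylurea receptor, had no count at all, and the intestinal sterol pair Abcg5 and Abcg8 had 15 counts each. No change is given for these genes.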

How the data were processed

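RNA sequencing of polyA RNA was analysed. The submitters' processing notes list kallisto 0.45.0, edgeR, limma and R 4.0.0, and give GRCh38, a human build, although the gene symbols are murine; the reference is therefore uncertain. The tables the authors deposited, raw and filtered, contain estimated counts for each symbol, identical in every shared gene. The filter keeps genes above 1 CPM in at least 2 libraries. No source used here gives the strand.

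Raw-table counts were rounded here, filtered with filterByExpr to 15035 genes and TMM-scaled. A single edgeR 4.0.16 quasi-likelihood model of all 6 libraries (R 4.3.3, 3 residual degrees of freedom) gave the 3 comparisons. A gene was called at a Benjamini-Hochberg adjusted p under 0.05 over all genes, all 34 members being in the fit. The test was tried on simulated data in which most genes were unchanged and 50 genes at each fold differed with TEV. It called 26% of 1.5-fold, 66% of 2-fold, 80% of 4-fold and 96% of 8-fold changes. An uncalled gene is therefore not shown to be unchanged. SEs are the log2 change divided by the root of the F statistic. DESeq2 1.42.0, limma-voom (limma 3.58.1), other scalings and filters, a replicate block, thinning and leaving out each library were alternatives. Transcript lengths, shared 75-base windows and exon overlaps used GENCODE M21, gene order and promoters RefSeq GRCm38.p6; all 34 symbols matched GENCODE and the RefSeq gene table, and 26 the promoter table. Each member could be named; 2 members are included in counts and sums but not reported here individually. Up to 4 called and 2 uncalled genes of each other list, in order of level, could be named, and those named were chosen from these after their values were seen. The members and lists were chosen with earlier results of these data known. The replicate numbers are those of the sample titles; the descriptions number both vesicle groups 2 and 3. Read literally, the design text gives reserpine to every group; the sample labels were followed. Levels are limited by counting: 3 counts equal 0.0369 to 0.135 CPM.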

Additional observations from a re-analysis of the deposited data

How the results depend on the processing

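Of 95 described member values with a test, 59 were called, 41 of them in every alternative tried, and no called value changed sign. Uncalled values changed sign as follows. Leaving out each library, TEV against vehicle ranged from -0.55 to 0.05 for Abcb1b, -0.56 to 0.07 for Abcb6 and -0.18 to 0.70 for Abcb9 (-0.01 without TEV replicate 2), reserpine against TEV from -0.14 to 0.07 for Abce1 and -0.06 to 0.08 for Abcg2, and TEV plus reserpine against vehicle from -0.51 to 0.27 for Abca9. With library size alone, Abce1 was 0.05 with reserpine against TEV, and with no filter Abcg2 was -0.00 there. The same omissions gave 2153 to 4339 called genes in reserpine against TEV, and 3673 to 6004 genes, 6 to 13 members higher and 4 to 8 lower in TEV plus reserpine against vehicle, each with fewer samples. Scaling by library size alone put the median of all genes with TEV at -0.11 instead of 0.01, with 39.8% of calls higher instead of 50.5%, and for reserpine against TEV 59.4% instead of 49.5%. Members called with TEV were then 10 higher and 14 lower, beside 2968 higher and 4497 lower of all 15035 genes.

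The titles' numbers do not pair the libraries by design, and same-numbered libraries did not deviate together (correlations of 0.0191, -0.00216 and -0.0672). With that number as a replicate block, all genes called were 6864, 3840 and 5094 in the 3 comparisons, and members called were 10 higher and 10 lower, 11 and 6, and 10 and 8. The summed Abcb1a and Abcb1b change was -0.92, 1.21 and 0.30 with the block. With 2 libraries in a group, small changes are hard to detect, and at total counts of 22270657 to 81225627 the scarce Abca9, Abcb9 and Abca8a are measured from few reads.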
